A study of Homo sapiens with 9 samples.

Results

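The androgen-induced target genes of prostate cells were followed after silencing of CDO1, which encodes cysteine dioxygenase, an enzyme that oxidises cysteine. The 34 genes were taken by name as known androgen-induced genes, in a list drawn up with earlier results of these data known, and all 34 were found among the 58735 genes of the count table, of which 15555 were expressed enough to be tested. Of the 34 genes, 33 were tested and AZGP1 was not, because too few reads were counted. The cells were VCaP, an established prostate cancer cell line that responds to androgen and carries the TMPRSS2-ERG fusion, labelled as wild type and grown in all 3 groups in DMEM with 10% fetal bovine serum and 2 nM of dihydrotestosterone (DHT), a potent androgen. They received a control siRNA (siCtrl) or 1 of 2 siRNAs against CDO1 (siCDO1A and siCDO1C), with 3 libraries of poly(A) RNA per siRNA, labelled as biological replicates 1 to 3 and as batches 1 to 3, each batch holding 1 library of each group. No group without DHT was analysed here, so that the level of each gene was compared between siRNAs in the continued presence of androgen. Because the groups differ only in a transient siRNA in a single cell line, p-values measure the spread between these cultures.

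Androgens such as testosterone and DHT change transcription in the prostate through DNA sequences called androgen response elements, at which coactivators are recruited to nearby genes. In luminal cells of the prostate the classical induced genes encode secreted proteases of the kallikrein family, membrane proteases and transporters, enzymes of lipid and polyol metabolism, and regulators that feed back on the hormone response. KLK3 encodes prostate-specific antigen (PSA), which is measured in blood to follow prostate cancer. Many of these genes also respond to other steroids or to other signals, so that membership of the list does not make a gene a reporter of androgen alone.

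RefSeq promoters (GRCh38.p14), from 250 bases before to 50 bases after the start site, were matched for 26 of the 34 genes. The kallikrein promoters are shown because KLK2 and KLK3 adjoin each other, have closely similar promoters and moved in opposite directions with siCDO1A, and SLC45A3 and PMEPA1 are shown because their levels differed between the CDO1 siRNAs. Capitals mark, in KLK2 and KLK3, a match to the relaxed androgen response element GNACANNNNGTNC (in KLK3 joined with the overlapping core AGAACA) and, in PMEPA1, the core AGAACA alone. The KLK4 and SLC45A3 windows hold neither.
KLK2, chr19:50873189-50873488, plus strand: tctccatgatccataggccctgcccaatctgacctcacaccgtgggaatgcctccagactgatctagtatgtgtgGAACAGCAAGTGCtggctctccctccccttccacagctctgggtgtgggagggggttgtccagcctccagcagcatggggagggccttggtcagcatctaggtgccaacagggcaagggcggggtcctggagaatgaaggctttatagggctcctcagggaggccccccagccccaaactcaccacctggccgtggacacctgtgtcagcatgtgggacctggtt
KLK3, chr19:50854665-50854964, plus strand: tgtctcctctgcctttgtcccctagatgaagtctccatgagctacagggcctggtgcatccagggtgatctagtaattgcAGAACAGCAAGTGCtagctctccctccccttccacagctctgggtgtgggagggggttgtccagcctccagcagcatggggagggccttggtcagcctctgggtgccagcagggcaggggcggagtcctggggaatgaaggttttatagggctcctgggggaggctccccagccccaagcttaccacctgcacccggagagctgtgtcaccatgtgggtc
KLK4, chr19:50910689-50910988, minus strand: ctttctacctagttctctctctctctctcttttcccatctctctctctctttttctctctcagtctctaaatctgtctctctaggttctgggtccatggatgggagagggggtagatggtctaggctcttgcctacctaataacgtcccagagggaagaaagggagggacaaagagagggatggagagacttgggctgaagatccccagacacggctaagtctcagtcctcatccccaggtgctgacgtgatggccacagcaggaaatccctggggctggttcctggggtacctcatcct
SLC45A3, chr1:205680460-205680759, minus strand: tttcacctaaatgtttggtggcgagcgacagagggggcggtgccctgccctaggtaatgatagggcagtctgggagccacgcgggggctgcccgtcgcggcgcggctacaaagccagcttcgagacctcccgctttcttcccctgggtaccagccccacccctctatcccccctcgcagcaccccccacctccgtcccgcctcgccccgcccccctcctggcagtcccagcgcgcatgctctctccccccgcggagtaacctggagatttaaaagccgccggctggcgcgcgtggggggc
PMEPA1, chr20:57711423-57711722, minus strand: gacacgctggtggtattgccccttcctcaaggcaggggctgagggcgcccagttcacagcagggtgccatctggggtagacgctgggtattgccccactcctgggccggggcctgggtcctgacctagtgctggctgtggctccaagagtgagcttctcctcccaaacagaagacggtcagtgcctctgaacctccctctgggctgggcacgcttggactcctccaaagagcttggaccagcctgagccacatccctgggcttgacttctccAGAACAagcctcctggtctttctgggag

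The KLK2 and KLK3 windows were identical in 245 of 309 aligned columns (79.3%), against 46.7% for KLK2 with KLK4 and 46.6% for KLK3 with KLK4. Both KLK2 and KLK3 hold the same letters, GAACAGCAAGTGC, starting 175 bases before the KLK2 start site and 169 bases before that of KLK3. Searched on both strands, the core AGAACA was found in 3 of the 26 promoters (KLK3, FKBP5 and PMEPA1), against 14.9% of 27305 RefSeq promoters. The relaxed element was found in KLK2, KLK3 and CENPN, against 2.14% of all promoters. The palindrome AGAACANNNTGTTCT was in none of the 26 and in 0.00366% of all promoters. These matches describe letters in a short window and were not tested for binding, and distal enhancers were not examined. In the count table KLK2 spans chr19:50861568-50880567, so its RefSeq start site lies inside the annotated gene, whereas the RefSeq start sites of KLK3 (chr19:50854915-50860764) and KLK4 (chr19:50906352-50910738) are those of the table.

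Libraries held from 12061295 to 16073698 counted reads, and 3 reads, the limit that a count of 0 allows, corresponded to 0.187 to 0.249 CPM (read counts scaled to the total of the library) and covers counting error only. CDO1 itself was at 14.0 ± 0.277 CPM (SD, n = 3) in siCtrl cells, 2.505 ± 0.675 CPM with siCDO1A and 1.69 ± 0.976 CPM with siCDO1C, and it fell with each siRNA (edgeR adjusted p = 3.01e-09 and 3.9e-06). All 6 luminal prostate cancer markers examined (ERG, KRT8, KRT18, EPCAM, HOXB13 and FOLH1) were present, and their summed level was 1984 to 2024 CPM in siCtrl, 1828 to 1912 CPM in siCDO1A and 1848 to 2022 CPM in siCDO1C libraries, so that siCDO1A was below siCtrl in the sum. The markers did not all move with the sum. With siCDO1A, ERG rose (log2 fold change 0.24, edgeR adjusted p = 0.00825) and HOXB13 did not pass (-0.07, edgeR adjusted p = 0.413). KRT8, at 306 to 404 CPM over all libraries, passed in edgeR with siCDO1A but not with siCDO1C. Summed markers of basal cells were at 1.17 to 1.51 CPM in siCtrl, 2.31 to 3.42 CPM in siCDO1A and 1.30 to 2.74 CPM in siCDO1C libraries, so that siCDO1A was above siCtrl. Most of this sum was KRT14 (12 to 46 reads), while KRT5 and TP63 were at most at 0.137 and 0.234 CPM and were not tested. Summed markers of stroma reached at most 6.15 CPM and those of leukocytes 0.412 CPM, and COL1A2 was at 0 in every library. Markers of neuroendocrine cells summed to 121 to 130 CPM in siCtrl, 131.5 to 156.4 CPM in siCDO1A and 134 to 147 CPM in siCDO1C libraries, so that siCtrl was below both, and the part of these marker differences in the results was not tested. The siCDO1C replicate 2 library stood apart for several genes, and the number of members that passed the test with siCDO1C is given with and without it.

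In siCtrl cells, with reads divided by gene length, KLK2 had the highest level and SGK1 the lowest of the tested members. KLK2 was at 467.6 ± 16.9 CPM per kilobase (SD, n = 3), above 99.7% of all tested genes, and SGK1 at 0.247 ± 0.0608. NDRG1 (101 ± 1.57), PMEPA1 (96.5 ± 2.51), TRPM8 (81.8 ± 2.14), STEAP2 (68.5 ± 3.97), TPD52 (56.0 ± 1.85) and SLC45A3 (47.1 ± 2.10 CPM per kilobase) came after KLK2. KLK3 (8.70 ± 1.11) was close to FKBP5 (8.68 ± 0.629) and ABCC4 (9.19 ± 1.36 CPM per kilobase), and these levels did not differ beyond their spread. KLK3, above 67% of tested genes, was thus far below KLK2 in these cells. KLK2 and KLK3 are related genes, and how reads that fit both were counted is not given in the sources used here. The members from STEAP4 downward, among them INPP4B and RAB27A, were at 1.53 CPM per kilobase or less. AZGP1, a secreted glycoprotein, had 4, 0 and 3 reads in siCtrl, 7, 8 and 2 in siCDO1A and 7, 2 and 3 in siCDO1C libraries, which is close to the limit of detection in each.

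**Figure D1:**
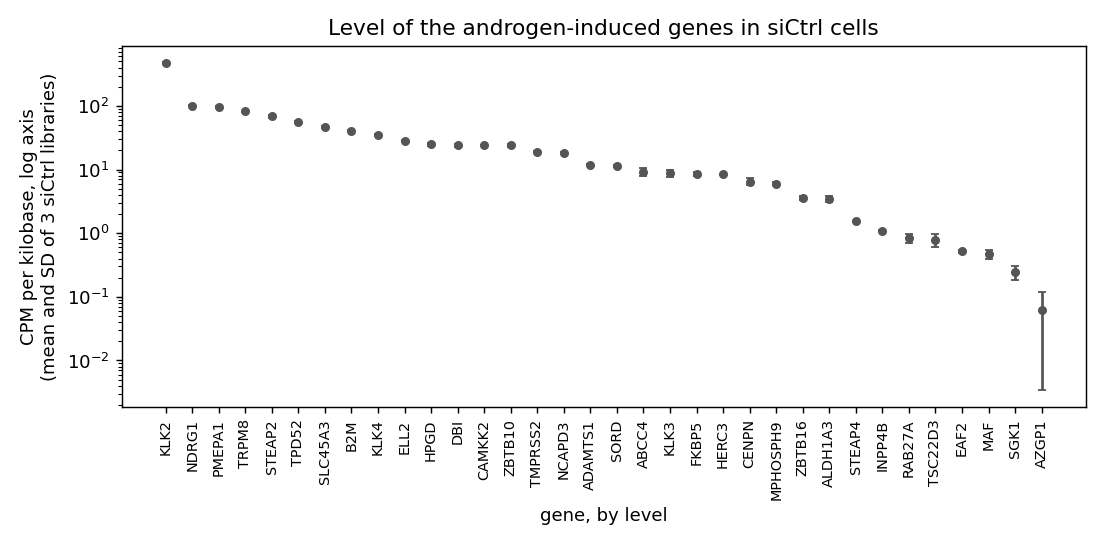
Level of each of the 34 androgen-induced genes in siCtrl cells, in CPM per kilobase of gene length on a log axis, with the mean and SD of 3 libraries. Genes are ordered by level, from KLK2 at 467.6 to AZGP1 at 0.0615 CPM per kilobase.

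With siCDO1A, 14 of the 33 tested members (42.4%) passed the threshold of an adjusted p of at most 0.05, with 8 above and 6 below the siCtrl level. Of all tested genes, 14.8% passed, 7.37% higher and 7.48% lower. With siCDO1C, 8 members (24.2%) passed, 3 higher and 5 lower, against 4.77% of all tested genes, 2.27% higher and 2.5% lower. The members as a group thus did not move one way with either siRNA. Their median log2 fold change was 0.09 with siCDO1A (0.01 for all tested genes) and 0.05 with siCDO1C (-0.0002 for all tested genes), and 20 and 18 of the 33 had a positive sign. The median absolute log2 fold change was 0.24 against 0.15 for all tested genes with siCDO1A, and 0.17 against 0.14 with siCDO1C. Well expressed genes are more easily called, and among genes with a mean of at least 5 CPM the shares were 14 of 29 members (48.3%) against 18.6% of all such genes with siCDO1A, and 8 of 29 members (27.6%) against 6.05% with siCDO1C.

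Both comparisons used the same 3 siCtrl libraries, and a chance deviation of these libraries would enter both. SLC45A3, KLK4 and ADAMTS1 were higher with both siRNAs, as were 1.9% of all tested genes, and KLK3, INPP4B, ALDH1A3 and HERC3 were lower with both, as were 1.72% of all tested genes. In edgeR, KLK2, ABCC4, PMEPA1, ZBTB10 and RAB27A were higher, and ELL2 and HPGD lower, past the threshold with siCDO1A but not with siCDO1C, and STEAP4 was lower past the threshold with siCDO1C but not with siCDO1A. In DESeq2, ABCC4, PMEPA1 and ZBTB10 also passed with siCDO1C (adjusted p = 0.0202, 0.0473 and 0.0293). No member passed in opposite directions, and 18 passed in neither comparison. Each of the 14 and 8 passing members had all its siRNA libraries on 1 side of siCtrl. The same sign in all 3 batches follows from this and is no further support. Of the 33 tested members, passing or not, 13 lay wholly above and 7 wholly below siCtrl with siCDO1A, and 14 and 7 with siCDO1C. Of all 15555 tested genes, 2364 lay wholly above and 2400 wholly below siCtrl with siCDO1A, and 1888 and 1872 with siCDO1C. Without siCDO1C replicate 2, the number of members past the threshold with siCDO1C was 14 of 33, with 13.3% of all tested genes passing, and it was 4 without siCtrl replicate 2 (1.75% of all) and 5 without siCDO1C replicate 1 (2.37% of all), so that the share over all genes moved with the members' count. In bulk RNA a change in every cell cannot be told apart from a larger change in some of them.

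**Figure D2:**
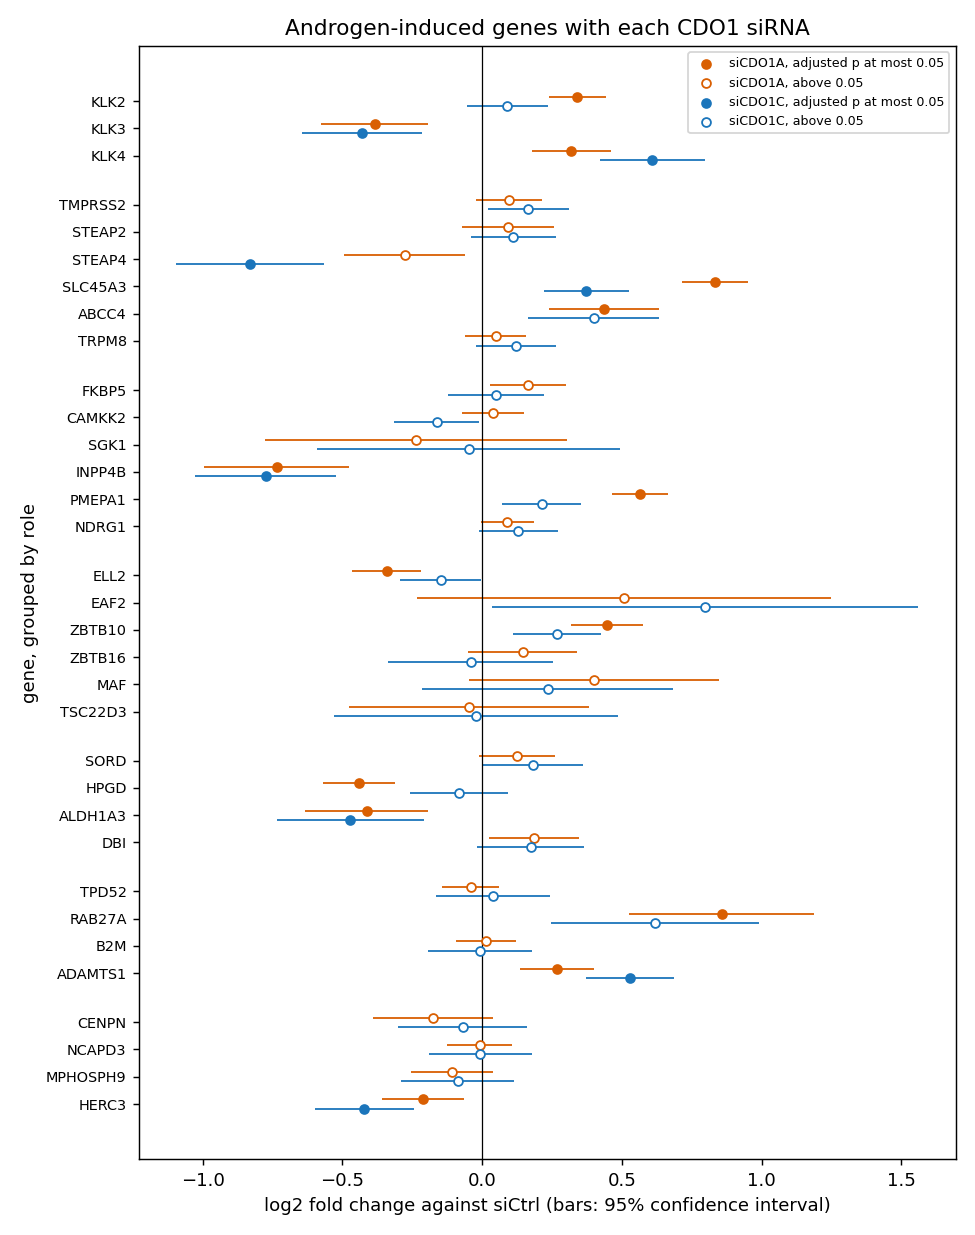
Log2 fold change of each tested member with siCDO1A and with siCDO1C against siCtrl, grouped by role, with bars for the 95% confidence interval of the edgeR fit. Values lie on both sides of 0 within the kallikreins (KLK4 higher, KLK3 lower with both siRNAs), and SLC45A3 and RAB27A are the highest with siCDO1A at 0.83 and 0.86.

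The kallikreins, serine proteases secreted by the prostate, split between the directions. KLK2, a trypsin-like protease that activates other kallikreins, was at 2877, 3000 and 3092 CPM in siCtrl, 3806, 3970 and 3581 CPM in siCDO1A and 3063, 3329 and 3201 CPM in siCDO1C libraries. All siCDO1A libraries were above siCtrl, while the siCDO1C libraries overlapped it. KLK2 rose 1.27-fold with siCDO1A (log2 fold change 0.34, standard error 0.0486, edgeR adjusted p = 5.62e-05), and its log2 fold change with siCDO1C was 0.09 (95% interval -0.06 to 0.23, edgeR adjusted p = 0.536). KLK3, the PSA gene, was at 36.2, 38.9 and 46.1 CPM in siCtrl, 29.6, 31.1 and 32.3 CPM in siCDO1A and 28.9, 31.4 and 30.3 CPM in siCDO1C libraries, so that every library with a CDO1 siRNA was below every siCtrl library. KLK3 fell by 0.38 on the log2 scale with siCDO1A (standard error 0.0922, edgeR adjusted p = 0.00741) and by 0.43 with siCDO1C (standard error 0.101, edgeR adjusted p = 0.0243). The siCtrl replicate 3 library was the highest, and without it the adjusted p was 0.0544 with siCDO1A and 0.149 with siCDO1C. The siCDO1C value was also above 0.05 without siCtrl replicate 2 (0.0834), siCDO1C replicate 1 (0.119) or siCDO1C replicate 3 (0.0505).

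KLK4, a protease also known for its role in tooth enamel, was at 65.6, 66.6 and 70.5 CPM in siCtrl, 80.9, 90.4 and 81.8 CPM in siCDO1A and 115, 92.1 and 103.5 CPM in siCDO1C libraries. The groups did not overlap, and siCDO1C lay above siCDO1A, which lay above siCtrl. KLK4 rose 1.25-fold with siCDO1A (log2 fold change 0.32, standard error 0.0679, edgeR adjusted p = 0.00295) and 1.53-fold with siCDO1C (0.61, standard error 0.0882, edgeR adjusted p = 0.000925). Because KLK2 and KLK3 moved differently, the ratio of their counts, chosen for description after the values were seen, went from 79.6, 77.2 and 67.1 in siCtrl to 128.5, 127.8 and 110.8 in siCDO1A and 105.9, 105.9 and 105.7 in siCDO1C libraries. KLK2 alone took 0.290% to 0.310% of all counts in siCtrl, 0.356% to 0.392% in siCDO1A and 0.308% to 0.330% in siCDO1C libraries. The 33 remaining members together took 0.533% to 0.558%, 0.576% to 0.618% and 0.579% to 0.596%.

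**Figure D3:**
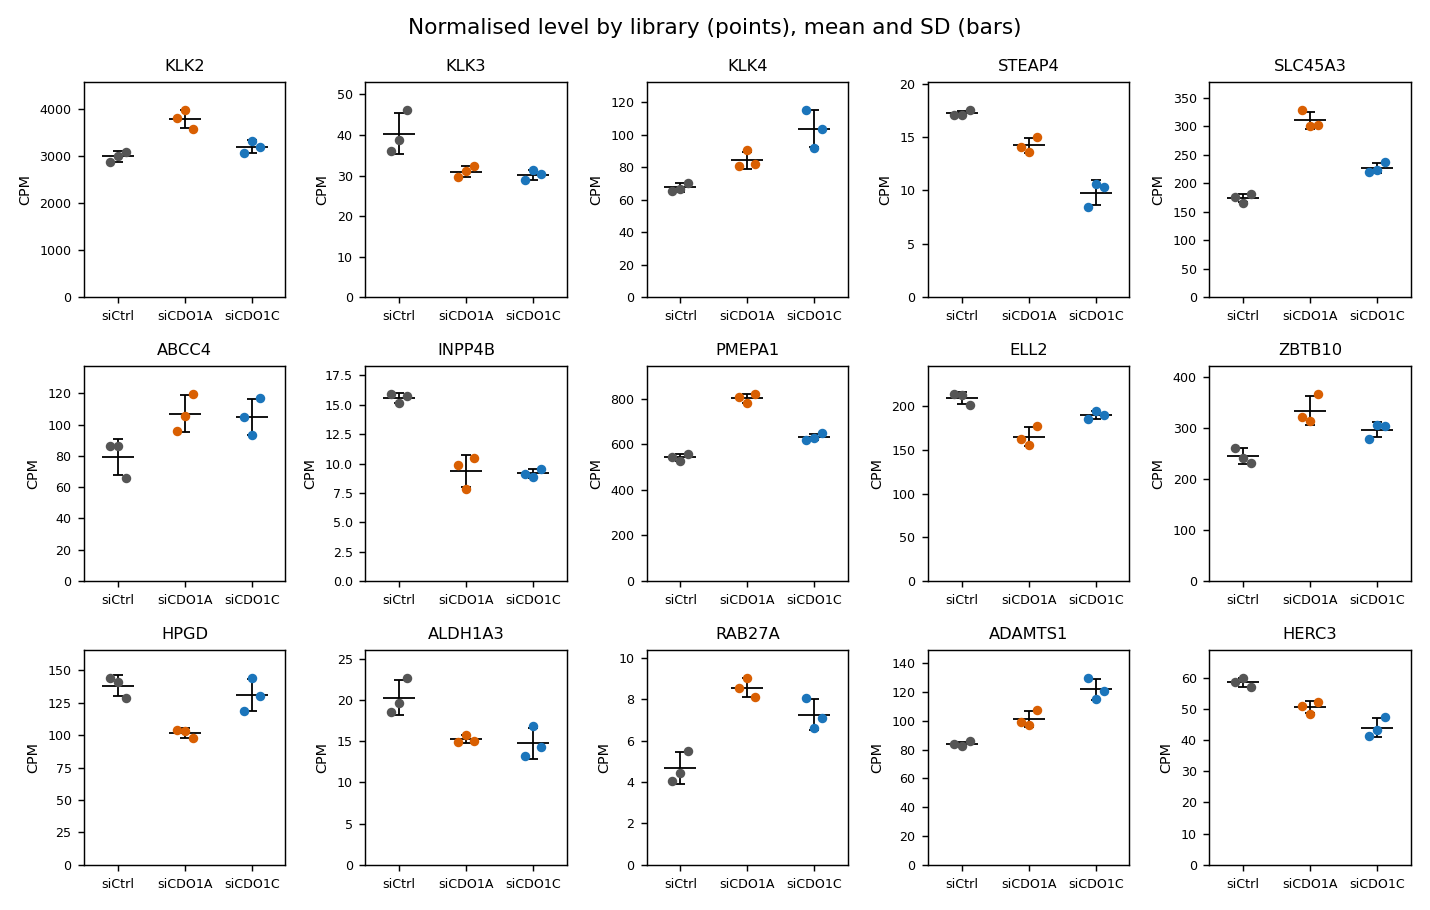
CPM of members past the threshold with at least 1 siRNA, by group, with a point for each library and bars for the mean and SD of 3 libraries. KLK3, INPP4B, ALDH1A3, HERC3, ELL2 and STEAP4 have every siCDO1A and siCDO1C library below siCtrl. SLC45A3, KLK4, ADAMTS1, ABCC4, PMEPA1, ZBTB10 and RAB27A have every one above it, and KLK2 and HPGD overlap siCtrl with siCDO1C.

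Among the 6 membrane proteases, reductases, transporters and channels, 2 were higher and none lower past the threshold with siCDO1A (ABCC4 was the other beside SLC45A3), and 1 was higher and 1 lower with siCDO1C. SLC45A3, the transporter known as prostein, which marks prostate epithelium, was at 176.5, 165.7 and 181 CPM in siCtrl, 328, 301 and 303 CPM in siCDO1A and 220, 223.5 and 237.5 CPM in siCDO1C libraries. The groups did not overlap, with siCDO1A the highest. SLC45A3 rose 1.78-fold with siCDO1A (log2 fold change 0.83, standard error 0.0563, edgeR adjusted p = 3.01e-09) and 1.29-fold with siCDO1C (0.37, standard error 0.0711, edgeR adjusted p = 0.00644, or 0.0854 without siCtrl replicate 2). ABCC4, an exporter of cyclic nucleotides and prostaglandins, was at 86.2, 86.1 and 65.8 CPM in siCtrl, 95.8, 105.5 and 119 CPM in siCDO1A and 105, 93.4 and 117 CPM in siCDO1C libraries, with both siRNA groups above siCtrl. It rose 1.35-fold with siCDO1A (log2 fold change 0.44, standard error 0.0934, edgeR adjusted p = 0.00374). With siCDO1C its log2 fold change was 0.40 (95% interval 0.17 to 0.63, edgeR adjusted p = 0.0511), and the adjusted p was 0.0446 with the replicate block (the pairing of libraries by batch number) and 0.00362 without siCDO1C replicate 2. ABCC4 passed with siCDO1C in 8 of 14 alternatives. Over these 14 the log2 fold change ranged from 0.28 to 0.48 and the edgeR or DESeq2 adjusted p from 0.000365 to 0.22.

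STEAP4, a metalloreductase of iron and copper, was at 17.1, 17.1 and 17.5 CPM in siCtrl, 14.0, 13.6 and 15.0 CPM in siCDO1A and 8.43, 10.6 and 10.3 CPM in siCDO1C libraries. The groups did not overlap, and siCDO1C was the lowest. STEAP4 fell 1.78-fold with siCDO1C (log2 fold change -0.83, standard error 0.124, edgeR adjusted p = 0.00114), and its log2 fold change with siCDO1A was -0.28 (95% interval -0.49 to -0.06, edgeR adjusted p = 0.0796, or 0.0494 without siCDO1A replicate 3). That fit was the 1 of 14 alternatives in which STEAP4 passed with siCDO1A. TMPRSS2, the serine protease whose promoter drives ERG in the fusion, was at 116, 118 and 119 CPM in siCtrl, 129, 124 and 124 CPM in siCDO1A and 130, 134 and 134 CPM in siCDO1C libraries. Although every library with a CDO1 siRNA was above siCtrl, neither difference passed the threshold, at log2 fold changes of 0.10 (95% interval -0.02 to 0.21, edgeR adjusted p = 0.292) and 0.17 (95% interval 0.02 to 0.31, edgeR adjusted p = 0.2). For STEAP2, a relative of STEAP4, and for TRPM8, a cold-activated calcium channel, log2 fold changes were 0.05 to 0.12 and the edgeR adjusted p ranged from 0.366 to 0.594. Without siCDO1C replicate 2, TRPM8 passed with siCDO1C (edgeR adjusted p = 0.0351), in 1 of 14 alternatives. The siCDO1A value of STEAP2 rested on replicate 3, with differences of -0.09, -0.06 and 0.41 within batches 1, 2 and 3, and it was -0.03 without siCDO1A replicate 3. Removing trends with gene length and GC content brought STEAP2 (0.15, edgeR adjusted p = 0.00792) and TRPM8 (0.12, edgeR adjusted p = 0.0227) past the threshold with siCDO1A.

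Of the 6 signalling genes, PMEPA1 rose and INPP4B fell with siCDO1A (14.8% of all tested genes passed). INPP4B was the one of them that passed in edgeR with siCDO1C (4.77% of all). PMEPA1, an inhibitor of TGF-beta signalling, was at 542.5, 528 and 556 CPM in siCtrl, 807, 780.5 and 819 CPM in siCDO1A and 619, 628.5 and 648 CPM in siCDO1C libraries. The groups did not overlap, with siCDO1A the highest. PMEPA1 rose 1.48-fold with siCDO1A (log2 fold change 0.56, standard error 0.0481, edgeR adjusted p = 8.8e-08), and with siCDO1C its log2 fold change was 0.21 (95% interval 0.07 to 0.35, edgeR adjusted p = 0.0824, or 0.00115 without siCDO1C replicate 2), which passed in DESeq2 (adjusted p = 0.0473). PMEPA1 passed with siCDO1C in 5 of 14 alternatives, with an edgeR or DESeq2 adjusted p of up to 0.343. INPP4B, a phosphoinositide phosphatase that restrains AKT signalling, was at 15.9, 15.1 and 15.8 CPM in siCtrl, 9.84, 7.87 and 10.4 CPM in siCDO1A and 9.11, 8.83 and 9.57 CPM in siCDO1C libraries, with both siRNA groups below siCtrl and overlapping each other. INPP4B fell 1.66-fold with siCDO1A (log2 fold change -0.73, standard error 0.125, edgeR adjusted p = 0.000394) and 1.71-fold with siCDO1C (-0.77, standard error 0.119, edgeR adjusted p = 0.00143).

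FKBP5, NDRG1, CAMKK2 and SGK1 did not pass with either siRNA in edgeR. FKBP5, a cochaperone of steroid receptors, was at 92.2 ± 6.69 CPM in siCtrl, 103 ± 3.03 CPM in siCDO1A and 95.8 ± 4.76 CPM in siCDO1C cells (SD, n = 3), with log2 fold changes of 0.16 (95% interval 0.03 to 0.30, edgeR adjusted p = 0.0993) and 0.05 (-0.12 to 0.22, edgeR adjusted p = 0.804). The siCDO1A libraries were above siCtrl. FKBP5 and NDRG1 passed with siCDO1A once trends with gene length and GC content were removed (log2 fold change 0.25 and 0.12, edgeR adjusted p = 0.000245 and 0.0205). NDRG1, a gene also induced by hypoxia, had log2 fold changes of 0.09 (95% interval -0.005 to 0.19, edgeR adjusted p = 0.204) and 0.13 (-0.01 to 0.27, edgeR adjusted p = 0.319), with both siRNA groups above siCtrl. CAMKK2, a calcium-dependent kinase upstream of AMPK, had log2 fold changes of 0.04 with siCDO1A and -0.16 with siCDO1C (edgeR adjusted p = 0.691 and 0.236), and its siCDO1C libraries were below siCtrl. SGK1, a steroid-induced kinase, was at 1.79 to 3.04 CPM in all libraries, where its 95% interval with siCDO1A reached from -0.78 to 0.30, so that a change of that size was not detectable at this depth.

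Among the 6 genes of transcription, ZBTB10 rose and ELL2 fell with siCDO1A (14.8% of all tested genes passed) and 0 passed in edgeR with siCDO1C (4.77% of all). With siCDO1C an unadjusted p under 0.05 was found for 2 of these genes above and 1 below siCtrl, and ZBTB10 passed in DESeq2 (adjusted p = 0.0293). ELL2, an elongation factor of RNA polymerase II, was at 214, 213.5 and 202 CPM in siCtrl, 163, 156 and 178 CPM in siCDO1A and 185.5, 195 and 190 CPM in siCDO1C libraries. It fell by 0.34 on the log2 scale with siCDO1A (standard error 0.0588, edgeR adjusted p = 0.00046), with siCDO1C lying between the other groups (log2 fold change -0.15, 95% interval -0.29 to -0.0028, edgeR adjusted p = 0.258, or 0.0362 without siCDO1C replicate 2). That fit was the 1 of 14 alternatives in which ELL2 passed with siCDO1C. ZBTB10, a zinc finger repressor, was at 261, 242 and 232 CPM in siCtrl, 321, 313.5 and 366 CPM in siCDO1A and 279, 306 and 304 CPM in siCDO1C libraries, again with siCDO1C between the other groups and no overlap. ZBTB10 rose 1.36-fold with siCDO1A (log2 fold change 0.45, standard error 0.0625, edgeR adjusted p = 4.51e-05), and with siCDO1C its log2 fold change was 0.27 (95% interval 0.11 to 0.42, edgeR adjusted p = 0.0512, or 0.00212 without siCDO1C replicate 2). ZBTB10 passed with siCDO1C in 7 of 14 alternatives, with an edgeR or DESeq2 adjusted p of up to 0.234. EAF2, a partner of the ELL factors, was above siCtrl in every library with a CDO1 siRNA, but at 0.857 to 2.28 CPM its log2 fold changes of 0.51 and 0.80 had wide intervals (-0.23 to 1.25 and 0.03 to 1.56) and did not pass. ZBTB16, MAF and TSC22D3, 3 transcription factors or regulators also induced by glucocorticoids or in other lineages, had log2 fold changes between -0.05 and 0.40 with edgeR adjusted p from 0.234 to 0.973.

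HPGD and ALDH1A3 passed among the 4 enzymes and carriers of metabolism, both lower, against 14.8% of all tested genes with siCDO1A and 4.77% with siCDO1C. HPGD, the dehydrogenase that inactivates prostaglandins, was at 144, 141 and 129 CPM in siCtrl, 104, 103 and 97.6 CPM in siCDO1A and 119, 144 and 130 CPM in siCDO1C libraries. The siCDO1A libraries were below all others, and the siCDO1C libraries overlapped siCtrl. HPGD fell by 0.44 on the log2 scale with siCDO1A (standard error 0.0619, edgeR adjusted p = 4.72e-05), against a log2 fold change of -0.08 with siCDO1C (95% interval -0.26 to 0.09, edgeR adjusted p = 0.652). ALDH1A3, which makes retinoic acid, was at 18.6, 19.6 and 22.7 CPM in siCtrl, 14.9, 15.8 and 15.1 CPM in siCDO1A and 13.2, 16.8 and 14.3 CPM in siCDO1C libraries, all of the latter below siCtrl. It fell by 0.41 on the log2 scale with siCDO1A (standard error 0.105, edgeR adjusted p = 0.011, or 0.0718 without siCtrl replicate 3) and by 0.47 with siCDO1C (standard error 0.124, edgeR adjusted p = 0.0414). The siCDO1C call rested on the set of libraries, since the adjusted p was 0.0892, 0.126 and 0.205 without siCtrl replicate 1, 2 or 3, and 0.189 and 0.0914 without siCDO1C replicate 1 or 3. An antisense gene, AC015712.2, overlaps ALDH1A3 with 14.4% as many reads, and the strand setting of the counting is not given in the sources used here. SORD, the sorbitol dehydrogenase, and DBI, the acyl-CoA binding protein, had log2 fold changes of 0.13 to 0.19 and edgeR adjusted p from 0.118 to 0.325, and DBI passed with siCDO1A without siCDO1A replicate 3 (0.00558). With length and GC trends removed, SORD and DBI passed with siCDO1A (edgeR adjusted p = 0.0203 and 0.0233).

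Of the 5 genes of secretion and the extracellular space, RAB27A and ADAMTS1 rose (7.37% of all tested genes passed higher with siCDO1A and 2.27% with siCDO1C). RAB27A, a small GTPase that docks secretory vesicles, was at 4.05, 4.46 and 5.53 CPM in siCtrl, 8.53, 9.03 and 8.13 CPM in siCDO1A and 8.09, 6.62 and 7.10 CPM in siCDO1C libraries. Both siRNA groups were above siCtrl. RAB27A rose 1.81-fold with siCDO1A (log2 fold change 0.86, standard error 0.159, edgeR adjusted p = 0.000924), and its log2 fold change with siCDO1C was 0.62 (95% interval 0.25 to 0.99, edgeR adjusted p = 0.055, or 0.0123 without siCDO1C replicate 2). It passed with siCDO1C in 5 of 14 alternatives, with an edgeR or DESeq2 adjusted p of up to 0.229. RAB27A overlaps PIGB on the opposite strand and PIGBOS1 on the same strand, with 133% and 52.7% as many reads, so its count is uncertain. ADAMTS1, an extracellular metalloprotease, was at 83.8, 82.7 and 85.6 CPM in siCtrl, 99.2, 96.8 and 107.5 CPM in siCDO1A and 130, 115 and 121 CPM in siCDO1C libraries, in an order like that of KLK4. It rose 1.20-fold with siCDO1A (log2 fold change 0.27, standard error 0.0631, edgeR adjusted p = 0.00645) and 1.44-fold with siCDO1C (0.53, standard error 0.0746, edgeR adjusted p = 0.000812). B2M, the light chain of MHC class I, and TPD52, a protein of vesicle traffic, had log2 fold changes from -0.04 to 0.04. In siCDO1C replicate 2 they were at 290 and 566 CPM, against 233 and 226 CPM for B2M and 419 and 437 CPM for TPD52 in the other siCDO1C libraries.

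The remaining 4 genes act in cell division or have other roles, and HERC3 passed (14.8% of all tested genes did with siCDO1A and 4.77% with siCDO1C). HERC3, a ubiquitin ligase of the HERC family, was at 58.7, 59.9 and 57.1 CPM in siCtrl, 51.0, 48.5 and 52.2 CPM in siCDO1A and 41.3, 43.3 and 47.4 CPM in siCDO1C libraries, and the groups did not overlap. HERC3 fell by 0.42 on the log2 scale with siCDO1C (standard error 0.0836, edgeR adjusted p = 0.00853, or 0.0615, 0.0698 and 0.0636 without siCtrl replicate 1, siCtrl replicate 2 or siCDO1C replicate 1). With siCDO1A it fell by 0.21 (standard error 0.0705, edgeR adjusted p = 0.0483), close to the threshold, and this call was lost in 11 of 14 alternatives. The adjusted p was 0.157 with the replicate block, 0.142, 0.167 and 0.063 without siCtrl replicate 1, 2 or 3, and 0.108 and 0.185 without siCDO1A replicate 1 or 2. HERC3 overlaps NAP1L5 on the opposite strand with 21.7% as many reads. CENPN of the centromere, NCAPD3 of condensin and MPHOSPH9 of the centrosome and cilium had log2 fold changes from -0.18 to -0.01, and the edgeR adjusted p ranged from 0.289 to 0.979. These genes overlap CMC2, VPS26B and C12orf65 on the opposite strand with 92.1%, 65.7% and 95.8% as many reads, so their counts are uncertain as well.

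**Figure D4:**
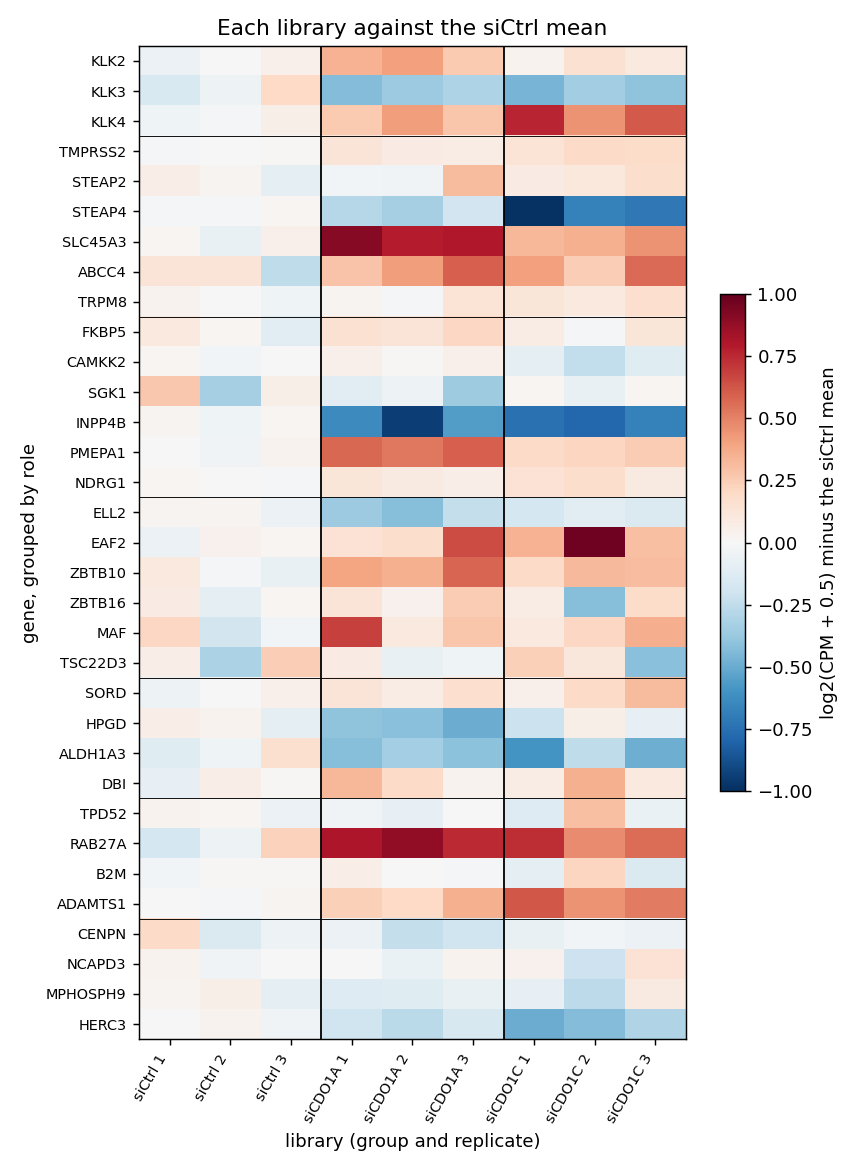
Deviation of each member in each of the 9 libraries from the siCtrl mean, as log2(CPM + 0.5), grouped by role, with colours for higher and lower values. Columns of a group share the pattern of SLC45A3, PMEPA1, INPP4B and KLK3, while siCDO1C replicate 2 differs from replicates 1 and 3 for TPD52 and B2M.

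Replicates of the members lay close to each other. The median coefficient of variation of the 33 tested members, with no limit on level, was 4.45% in siCtrl, 5.16% in siCDO1A and 7.08% in siCDO1C libraries. For all genes with a mean of at least 5 CPM it was 5.73%, 6.96% and 8.93%. The sets were not matched for level, so this is not a like comparison of their spread. In both sets the siCDO1C libraries varied the most.

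A direct comparison of siCDO1C with siCDO1A asked where the CDO1 siRNAs differ, and 2 of 33 members passed, SLC45A3 and PMEPA1, both lower with siCDO1C. Of all tested genes 0.444% passed, 0.244% higher and 0.199% lower with siCDO1C. SLC45A3 was lower by a log2 fold change of -0.46 (standard error 0.0794, 95% interval -0.62 to -0.29, edgeR adjusted p = 0.0114) and PMEPA1 by -0.35 (standard error 0.0754, 95% interval -0.51 to -0.19, edgeR adjusted p = 0.0496), from the library values given above. These calls were lost in several fits with 1 library fewer, although the log2 fold changes moved little. Over 14 alternatives these ranged from -0.49 to -0.42 for SLC45A3 and from -0.37 to -0.32 for PMEPA1. In the fits without siCDO1A replicate 1, 2 or 3 or siCDO1C replicate 1, the share of all tested genes that passed was 0.116% to 0.154%. Without siCDO1A replicate 1, 2 or 3 or siCDO1C replicate 1, the edgeR adjusted p was 0.196, 0.0886, 0.0721 and 0.115 for SLC45A3 and 0.418, 0.287, 0.2 and 0.295 for PMEPA1, which was also at 0.141 without siCDO1C replicate 3 and 0.0544 with RLE size factors.

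For other members that passed with 1 of the siRNAs, passing alone does not show a difference between them. HPGD had the next smallest adjusted p, at a log2 fold change of 0.36 for siCDO1C against siCDO1A (95% interval 0.18 to 0.54, edgeR adjusted p = 0.102), and it passed with the replicate block at 0.0368. HPGD passed in 7 of 14 alternatives, with an edgeR or DESeq2 adjusted p of up to 0.451. STEAP4 was at -0.55 (95% interval -0.84 to -0.26, edgeR adjusted p = 0.114) and KLK2 at -0.25 (95% interval -0.41 to -0.08, edgeR adjusted p = 0.285). ELL2, ZBTB10, RAB27A and ABCC4 were at 0.20, -0.18, -0.24 and -0.03 (edgeR adjusted p = 0.549, 0.656, 0.836 and 0.987). KLK4 and ADAMTS1, which passed with both siRNAs, were at 0.29 (95% interval 0.10 to 0.49, edgeR adjusted p = 0.301) and 0.26 (95% interval 0.09 to 0.44, edgeR adjusted p = 0.292). Without siCDO1C replicate 2, HPGD, STEAP4, KLK2, KLK4 and ADAMTS1 passed as well (edgeR adjusted p = 0.0285, 0.0207, 0.011, 0.00811 and 0.0213), so that 7 members did, while the share of all tested genes rose to 2.87%. For KLK3 and INPP4B the intervals of the difference between the siRNAs were -0.25 to 0.16 and -0.35 to 0.28.

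Factors that act with androgen in prostate cells were examined beside the induced genes. The pioneer factor FOXA1 and the homeobox factor HOXB13 had log2 fold changes from -0.07 to 0.03, and HOXB13 passed with siCDO1A at -0.13 once trends with gene length and GC content were removed (edgeR adjusted p = 0.00778). GATA2, which opens chromatin at androgen-responsive sites, rose with siCDO1A (log2 fold change 0.18, edgeR adjusted p = 0.0251) and was at 0.23 with siCDO1C (edgeR adjusted p = 0.0632). NR3C1, the glucocorticoid receptor, fell by 0.53 on the log2 scale with siCDO1A (edgeR adjusted p = 0.0355) and was at -0.19 with siCDO1C (edgeR adjusted p = 0.644). ERG, which in these cells is driven by the TMPRSS2 promoter, was at 172 ± 2.64 CPM in siCtrl, 203 ± 14.4 CPM in siCDO1A and 187 ± 4.69 CPM in siCDO1C cells (SD, n = 3), and rose with siCDO1A (log2 fold change 0.24, edgeR adjusted p = 0.00825) while siCDO1C was at 0.11 (edgeR adjusted p = 0.408). In all, 2 of these 5 genes passed higher and 1 lower with siCDO1A (14.8% of all tested genes passed), and 0 passed in edgeR with siCDO1C (4.77% of all). With siCDO1C, 1 (GATA2) was higher at an unadjusted p under 0.05. GATA2 passed with siCDO1C in 4 of 14 alternatives, among them DESeq2 (adjusted p = 0.0297) and the fit without siCDO1C replicate 2 (edgeR adjusted p = 0.000497). Its edgeR or DESeq2 adjusted p reached 0.275 in the others. The siCDO1A calls of GATA2, NR3C1 and ERG were lost with the replicate block (edgeR adjusted p = 0.109, 0.0665 and 0.0509). GATA2 and NR3C1 also lost theirs without siCtrl replicate 1 (0.113 and 0.219), siCtrl replicate 2 (0.117 and 0.057) or siCDO1A replicate 1 (0.135 for each), and GATA2 without siCDO1A replicate 2 (0.14). With length and GC trends removed, the siCDO1A log2 fold change of GATA2 was 0.10 (edgeR adjusted p = 0.0571), and NR3C1 did not pass in DESeq2 (adjusted p = 0.0563).

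Other androgen-responsive genes, 65 written from general knowledge, of which 64 were tested, were set beside the members. With siCDO1A, 4 were higher and 12 lower (25% of those tested, median log2 fold change -0.02), and with siCDO1C 1 was higher and 6 lower (10.9%, median -0.05). Of all tested genes, 14.8% passed with siCDO1A and 4.77% with siCDO1C. SELENOP, the plasma selenium carrier, rose with both siRNAs (log2 fold change 0.72 and 0.86, edgeR adjusted p = 1.96e-05 and 0.000159). SEC24D, of the COPII coat that buds from the endoplasmic reticulum, fell with both (-0.54 and -0.63, edgeR adjusted p = 1.82e-05 and 0.000468), as did DNAJB9, a cochaperone of the endoplasmic reticulum (-0.73 and -0.53, edgeR adjusted p = 0.000114 and 0.0185). INSIG1, a brake on sterol synthesis (-0.54 and -0.37, edgeR adjusted p = 6.32e-07 and 0.0123), and RPS6KA3, a kinase of the MAPK pathway (-0.32 and -0.36, edgeR adjusted p = 0.00375 and 0.0158), were also lower with both. The list was written with earlier results of these data known, so its counts are a description. With siCDO1C the calls of DNAJB9, INSIG1 and RPS6KA3 did not hold with fewer libraries. Without siCtrl replicate 1, siCtrl replicate 2 or siCDO1C replicate 1 the edgeR adjusted p was 0.112, 0.107 and 0.114 for DNAJB9, 0.106, 0.0875 and 0.0923 for INSIG1 and 0.128, 0.0546 and 0.0689 for RPS6KA3, and without siCtrl replicate 3 it was 0.0632 for INSIG1 and 0.0803 for RPS6KA3. In siCDO1C against siCDO1A, 1 of the 64 passed (1.56%, against 0.444% of all tested genes).

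Genes that androgen represses were the last list, with 8 of 9 tested. With siCDO1A, 3 were higher and 4 lower (87.5% of those tested, against 14.8% of all tested genes, median log2 fold change -0.37). With siCDO1C 1 was higher and 2 lower (37.5%, against 4.77% of all tested genes, median -0.24). In each comparison 5 of the 8 had a negative sign. This list too was written with earlier results of these data known. UGT2B15 and UGT2B17, which conjugate and clear DHT, fell with both siRNAs (log2 fold change -0.51 and -0.57 for UGT2B15, edgeR adjusted p = 4.55e-05 and 0.000701, and -0.43 and -0.63 for UGT2B17, edgeR adjusted p = 0.00753 and 0.00642). They are near-identical copies, and reads could be divided between them, so that each value is uncertain. CAMK2N1, an inhibitor of calmodulin-dependent kinase II, rose with both (0.19 and 0.53, edgeR adjusted p = 0.0182 and 0.00818). The siCDO1A call of CAMK2N1 was lost with the replicate block (edgeR adjusted p = 0.096) and without siCtrl replicate 1 or 2 (0.0559 and 0.103), and its siCDO1C call without siCtrl replicate 2 or 3 (0.0625 and 0.0672). UGT2B17 lost its calls without siCtrl replicate 2 (0.0601 with siCDO1A and 0.0597 with siCDO1C) and, with siCDO1C, without siCDO1C replicate 1 (0.0506). CCN3, named after its values were seen, was the gene of this list that passed between the siRNAs (12.5% of those tested, against 0.444% of all tested genes). It was at 41.1 ± 2.16 CPM in siCtrl, 20.6 ± 1.81 CPM in siCDO1A and 35.6 ± 0.856 CPM in siCDO1C cells (SD, n = 3, log2 fold change of siCDO1C against siCDO1A 0.79, edgeR adjusted p = 0.00118). Against siCtrl, CCN3 was at -0.99 with siCDO1A (edgeR adjusted p = 1.91e-07) and -0.21 with siCDO1C (edgeR adjusted p = 0.191). Neither the induced nor the repressed genes thus moved in a single direction with either siRNA.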

How the data were processed

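RNA of VCaP cells was measured by RNA-seq in 9 libraries, 3 per siRNA. Strand-specific poly(A) libraries were made, and the submitters' processing notes name CASAVA, HISAT2 2.0.5 and hg38. Reads per gene were counted with featureCounts, whose settings for strand and for multiply mapped reads are not given in the sources used here. The authors deposited whole-number counts per gene, not normalized, and these were used as deposited. The count table holds 3 further columns that match no sample, and these were used in no step. Columns of gene coordinates and length were taken from the same table.

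Genes were kept by filterByExpr of edgeR (minimum count 10, all 9 libraries), which left 15555 of 58735. Each of 3 comparisons was fitted on its 6 libraries with TMM normalization and the robust quasi-likelihood test of edgeR 4.0.16 in R 4.3.3, with Benjamini-Hochberg adjustment over all tested genes. An adjusted p of at most 0.05 was counted as passing. Standard errors and 95% intervals came from the same fit. CPM were computed on the TMM scale (factors 0.9898 to 1.01), and CPM per kilobase with the deposited gene length. Permuting the labels of 3 and 3 libraries exactly gives a p of 0.1 at the smallest, and this test was therefore not used.

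Batch numbers in the labels equal the replicate numbers, so libraries of the same number are paired by the labels. Deviations from the group means, correlated over 11337 genes with at least 5 CPM, gave Pearson's r of -0.20, 0.05 and -0.13 for number 1 (siCtrl with siCDO1A, siCtrl with siCDO1C, siCDO1A with siCDO1C), -0.09, -0.0073 and 0.13 for number 2 and -0.38, -0.28 and 0.38 for number 3. The study's methods name no such block, and the replicate block was an alternative. The others were DESeq2 1.42.0, 1 edgeR fit of 9 libraries, RLE size factors, no filter, at least 10 counts in every library, removal of length and GC trends (GC known for 99.3% of tested genes) with and without the block, and leaving out each library.

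All 34 members are named, as are 5 factors that act with androgen, CDO1, and, of the other lists, the genes passing in the same direction with both siRNAs, ordered by the smaller absolute log2 fold change (the first 5 androgen-responsive and the first 3 androgen-repressed genes). The members, lists and roles were chosen with earlier results of these data known, and no list was tested as a set. A gene of the lists of factors and luminal markers is not reported here. Promoters came from RefSeq (GRCh38.p14) and were matched by symbol.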

Additional observations from a re-analysis of the deposited data

Results flagged for a closer look

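The levels of SLC45A3 and PMEPA1 differed between cells with siCDO1C and cells with siCDO1A, by the direct edgeR test of siCDO1C against siCDO1A. The log2 fold change was -0.46 for SLC45A3 (edgeR adjusted p = 0.0114) and -0.35 for PMEPA1 (edgeR adjusted p = 0.0496), with every siCDO1C library between the siCtrl and siCDO1A libraries for both genes. The call was lost in 4 of 6 fits without 1 library for SLC45A3 and in 5 of 6 for PMEPA1. Over 14 alternatives the log2 fold changes stayed between -0.49 and -0.42 for SLC45A3 and between -0.37 and -0.32 for PMEPA1. CDO1 itself was at a log2 fold change of -0.56 in this comparison (edgeR adjusted p = 0.826), and the part of the siRNA sequence was not tested. Groups of 3 libraries were too small for a test of single outlying libraries.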

How the results depend on the processing

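The number of members past the threshold with siCDO1A (14) was 13 to 19 under the other fits of all libraries and 11 to 16 with 1 library left out (21.1% of all tested genes passed where it was 19, and 22.2% where it was 16). With siCDO1C (8) it was 9 to 12 under the other fits, in which 3.44% to 9.28% of all tested genes passed. With 1 library left out it was 4 (without siCtrl replicate 2, 1.75% of all) to 14 (without siCDO1C replicate 2, 13.3% of all). For siCDO1C against siCDO1A (2, with 0.444% of all) it was 4 with 1 edgeR fit of 9 libraries (0.823% of all) and 1 with RLE size factors (0.418%). It was 4 with length and GC trends removed (1.16%) and 8 with the replicate block added to that (2.22%). It was 0 when any 1 siCDO1A library or siCDO1C replicate 1 was left out (0.116% to 0.154%), and 7 without siCDO1C replicate 2 (2.87%). With the replicate block alone the counts were 13, 9 and 3 (8.73%, 4.08% and 0.778% of all), through HERC3, ABCC4 and HPGD, and no other member's call changed. With this block the siCDO1A calls of GATA2, NR3C1, ERG and CAMK2N1 were also lost. The median log2 fold change with siCDO1C (0.0497) was 0.0907 with length and GC trends removed, with and without the block. With 1 library left out the medians ranged from 0.0336 to 0.0905 (siCDO1A), from 0.0590 to 0.1271 (siCDO1C) and from -0.0361 to 0.0418 (siCDO1C against siCDO1A), so that the last had no stable sign. Over all named genes and alternatives, 71 calls were lost and 64 gained, 1831 kept their side of the threshold, and no value that passed changed sign. The cause of these changes was not tested. Genes under about 5 CPM (SGK1, EAF2, MAF, TSC22D3) had wide intervals at this depth.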
